A study of Mus musculus with 15 samples.

Results

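Map3k4, Gadd45g, Map2k6, Six4, Kdm3a and Cbx2 are regulators that act early in the fetal gonad, around the time when the testis-determining gene Sry is switched on. Their transcripts were read here in preSertoli cells of the E15.5 embryo (E, embryonic day), after the testis has formed. The 6 genes were named for this earlier role, with no threshold on their level but with earlier results of these data known, and all 6 were found among the 27697 gene symbols of the RNA-seq table. RNA-seq covered a single group of 3 libraries, so no condition was compared with another. The cells were E15.5 preSertoli cells, the somatic cells that enclose the germ cells of the fetal testis, from embryos of the C57BL/6J x CD-1 (F1) cross, purified by flow sorting. About 165 embryos were divided among 3 pools of about equal cell number, which the labels call biological replicates. The RNA-seq labels name neither a transgene nor a genotype. The labels of the DNase-seq libraries of the same series describe Sox9 heterozygous male embryos that carry a Sox9-ECFP reporter. Each value below belongs to a pool of many embryos, and the spread is that between pools.

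In the mouse, loss of any of several of these genes delays or prevents Sry expression in XY gonads, and an ovary can form in place of a testis. GADD45G is a small stress-response protein that binds the kinase MAP3K4. MAP3K4 activates the kinases MAP2K3 and MAP2K6, which in turn activate p38 MAP kinases. SIX4 is a homeodomain transcription factor that acts on Nr5a1 and Zfpm2 in the early gonad. KDM3A removes methyl groups from lysine 9 of histone H3 at the Sry locus, and CBX2 is a chromatin reader of Polycomb repressive complex 1 (PRC1) whose loss in mouse causes male-to-female sex reversal.

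The deposited values were squared to give scaled counts, on which 1 is the 75th percentile of each library over the rows above 0 in any library, equal to about 46.6 CPM, which are counts set against the sum of all counts in the library. Total expected counts were 47.8, 56.0 and 51.7 M in libraries 1, 2 and 3. To be called expressed, a gene needed at least 1 CPM in each of the 3 libraries. All 12 Sertoli cell markers examined were expressed, with a summed level of 9460 to 10400 CPM. So were all 5 fetal Leydig cell markers, whose summed level ran from 1220 to 1990 CPM. The median marker had 543 CPM in the Sertoli list and 293 CPM in the fetal Leydig list. The share of other cells in the levels of the regulators was not tested. Other lists were lower, with summed levels of 69.0 to 104 CPM for 5 interstitial markers (5 expressed), 41.8 to 57.7 CPM for 6 germ cell markers (5 expressed) and 29.1 to 30.8 CPM for 5 endothelial markers (3 expressed). The sums were 11.1 to 16.3 CPM for 3 peritubular myoid markers (2 expressed), 3.50 to 4.70 CPM for 5 blood and macrophage markers (1 expressed), 2.96 to 4.91 CPM for 5 granulosa markers (2 expressed) and 2.39 to 3.32 CPM for 4 mesonephric markers (1 expressed). No marker of any list was at 0 in all 3 libraries. In such a bulk sample, fewer cells of a type and less RNA per cell cannot be told apart.

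Of the 6 regulators, 5 were expressed, against 47.1% of all symbols, and Six4 was the exception. Map3k4, Kdm3a and Cbx2 lay above the 75th percentile level in every library, Gadd45g and Map2k6 below it in every library, and Six4 far below it. The 3 genes above that level are among 5226 of all 27697 symbols with a mean scaled count of 1 or more. Scaled counts are not divided by transcript length, so the ranks below order read counts and do not order transcripts per cell. Lengths of the counted transcripts were not used here.

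**Figure D1:**
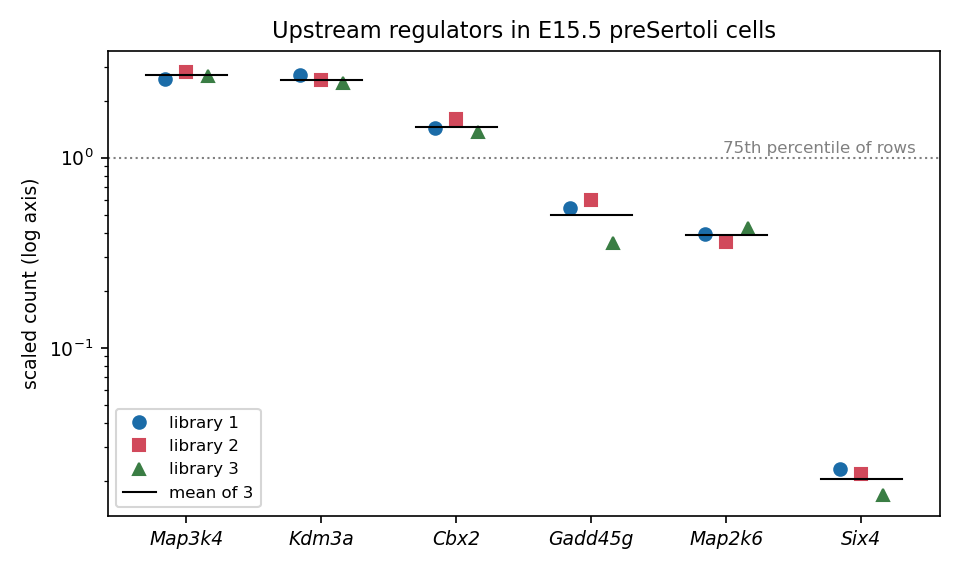
Scaled counts of the 6 regulators (y, log axis) in the 3 E15.5 preSertoli libraries, with a black line at each mean and a dotted line at the 75th percentile. Map3k4, Kdm3a and Cbx2 sit above the dotted line in all 3 libraries, Six4 sits between 0.0169 and 0.0230, and Gadd45g is lowest in library 3.

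Map3k4 encodes the kinase at the head of the p38 branch. Its scaled counts were 2.60, 2.83 and 2.70 in libraries 1, 2 and 3, with a mean of 2.71 ± 0.115 (SD, n = 3). The 3 values were close to each other, with a coefficient of variation (CV) of 4.18% in CPM. The mean corresponds to 126 ± 5.28 CPM (SD, n = 3) and rests on 5790, 7379 and 6506 expected counts. Map3k4 ranked 1893 of 27697 symbols by its mean, and 2006, 1792 and 1904 in the single libraries, so that 6.83% of symbols stood above it.

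Gadd45g, the activator of MAP3K4, was expressed in all 3 libraries but unevenly. Its scaled counts were 0.541, 0.600 and 0.355 in libraries 1, 2 and 3, with a mean of 0.499 ± 0.128 (SD, n = 3). Library 3 was low, and its 95% exact Poisson interval of 0.332 to 0.380 lay below those of library 1 (0.511 to 0.573) and library 2 (0.571 to 0.631). Poisson intervals cover counting error only. In CPM the mean was 23.2 ± 5.96 (SD, n = 3), from 1205, 1565 and 855 expected counts. Gadd45g ranked 7660 by its mean and 7403, 7066 and 8583 in the single libraries.

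Map2k6 encodes a kinase that activates p38 directly. Its scaled counts were 0.396, 0.359 and 0.429 in libraries 1, 2 and 3, with a mean of 0.394 ± 0.0350 (SD, n = 3). Library 3, which was lowest for Gadd45g, was highest for Map2k6. The level was 18.4 ± 1.62 CPM (SD, n = 3), from 881, 935 and 1031 expected counts, and the rank by the mean was 8385, with 8385, 8641 and 8100 in the single libraries. Gadd45g and Map2k6 stood next to each other in the order of scaled counts and their ranges overlapped: Gadd45g was above Map2k6 in libraries 1 and 2 and below it in library 3.

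Six4 lay at the edge of the call. Its scaled counts were 0.0230, 0.0216 and 0.0169 in libraries 1, 2 and 3, with a mean of 0.0205 ± 0.00318 (SD, n = 3). These values correspond to 1.07, 1.01 and 0.787 CPM, so that library 3 alone fell below 1 CPM and decided the call. With 51, 56 and 41 expected counts, the CPM intervals were wide (0.797 to 1.41, 0.762 to 1.31 and 0.564 to 1.07), and each included 1. Without library 3, Six4 met the 1 CPM threshold in both remaining libraries. Six4 ranked 13415 by its mean, and 13233, 13373 and 13621 in the single libraries, with 48.4% of symbols above it.

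Kdm3a encodes the histone H3 lysine 9 demethylase. Its scaled counts were 2.74, 2.55 and 2.46 in libraries 1, 2 and 3, with a mean of 2.58 ± 0.139 (SD, n = 3). The level was 120 ± 6.62 CPM (SD, n = 3), from 6091, 6641 and 5927 expected counts. Library 1 was the highest for Kdm3a and the lowest for Map3k4. The rank by the mean was 2022, with 1877, 2062 and 2155 in the single libraries, and the ranges of Kdm3a and Map3k4 overlapped.

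Cbx2, the Polycomb reader, had scaled counts of 1.43, 1.59 and 1.37 in libraries 1, 2 and 3 and a mean of 1.46 ± 0.115 (SD, n = 3). The level was 68.2 ± 5.35 CPM (SD, n = 3), from 3174, 4154 and 3305 expected counts. Cbx2 ranked 3811 by its mean and 3922, 3516 and 4031 in the single libraries. Its range met neither that of Kdm3a above it nor that of Gadd45g below it.

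**Figure D2:**
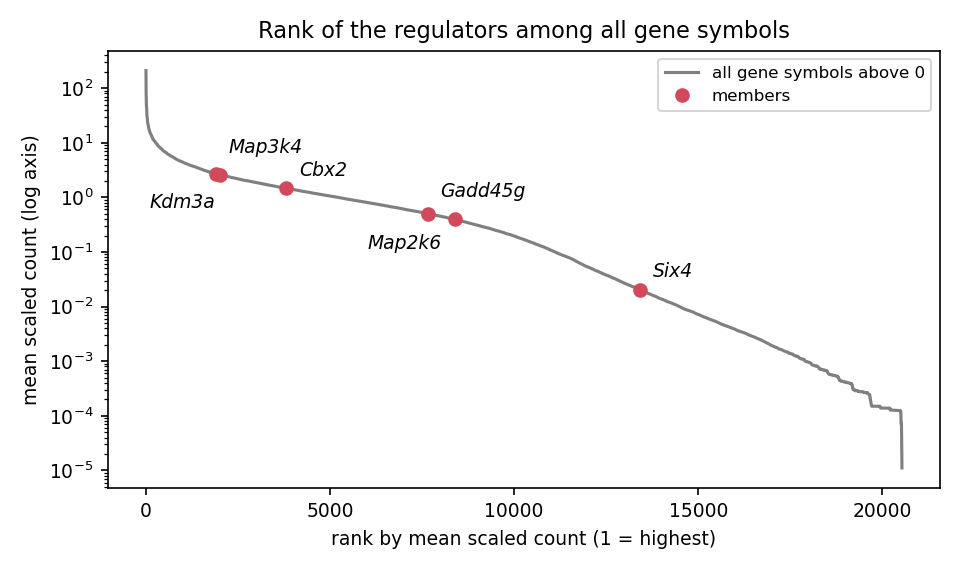
Mean scaled count (y, log axis) of every gene symbol above 0 against its rank (x, 1 is the highest), with the 6 regulators as red points. Map3k4 and Kdm3a sit together near rank 2000, and Six4 lies at rank 13415 on the falling part of the curve.

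Because a single group of 3 libraries gives no pattern to match, the genes most like each regulator were taken as those next to it in rank by mean scaled count. Map3k4 stood between Dtl and Pofut2, Kdm3a between Tmed7 and Alas1, and Cbx2 between Tmem55a and Casp9. Gadd45g stood between Plekhh2 and Myeov2, and Map2k6 between Clp1 and Fam125a. Six4 came just below Nrap, at 0.955 CPM each. These neighbours share a read count with the regulator and nothing else was compared.

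The CV over all 3 libraries was taken from CPM, and the CV without a library from scaled counts. Over all 3 libraries, Gadd45g had the highest CV of the 6 regulators. Its CV of 25.7% compares with a median of 6.75% over the 13036 expressed symbols, and 412 of these (3.16%) had a CV as high or higher. Map3k4 (4.18%) and Kdm3a (5.51%) lay below that median, and Cbx2 (7.85%) and Map2k6 (8.83%) above it, but these places rested on single libraries. Without library 2, Cbx2 (2.61%) and Map2k6 (5.64%) were below the median of the same 2 libraries (6.22%) and Kdm3a (7.40%) was above it, and without library 3, Map3k4 (5.98%) was above theirs (5.07%). Six4 had a CV of 15.6%, which was 1.10 times the 14.2% that counting alone would give at its depth. The CV was 8.92 times the counting part for Gadd45g and between 2.72 times (Map2k6) and 4.67 times (Cbx2) for the others. The counting part shrinks as counts rise, so this ratio also depends on depth and does not order the genes by spread. Library 3 carried most of the spread of Gadd45g, whose CV was 7.31% without it, below the 7.85% of Cbx2 in the same 2 libraries.

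**Figure D3:**
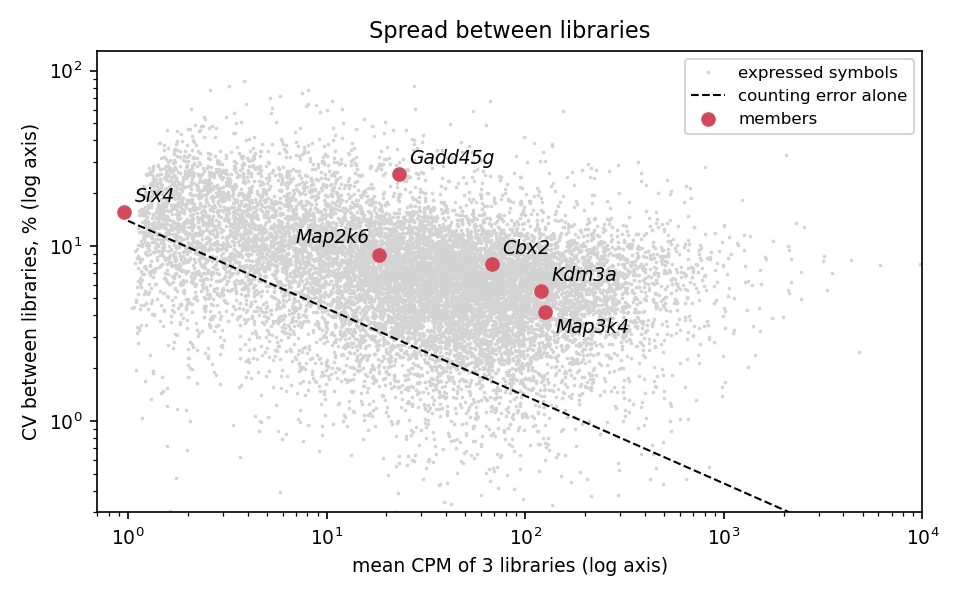
CV between the 3 libraries (y, percent, log axis) against mean CPM (x, log axis) for expressed symbols in grey and the 6 regulators in red, with a dashed line for counting error alone. Six4 lies close to the dashed line, and Gadd45g at 25.7% stands above the other regulators.

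Gadd45g was not alone in being low in library 3. Gadd45b, a stress-inducible paralog, had 16.5, 17.3 and 10.5 CPM in libraries 1, 2 and 3, whereas Gadd45a had 10.9, 12.0 and 10.7 CPM. Library 2 exceeded library 3 by 1.69 times for Gadd45g, 1.64 times for Gadd45b and 1.12 times for Gadd45a. The summed fetal Leydig markers stood at 1680, 1990 and 1220 CPM, a ratio of library 2 to library 3 of 1.64, and all 5 were lowest in library 3. The interstitial markers stood at 87.3, 104 and 69.0 CPM, with 4 of 5 lowest in library 3. A list of 11 immediate-early and stress genes, chosen after the spread of Gadd45g was seen, summed to 1540, 1630 and 1090 CPM, with 9 of 11 lowest in library 3. Amh, the Sertoli cell hormone, had 2170, 2660 and 1320 CPM, while the whole Sertoli list summed to 9910, 10400 and 9460 CPM, with 4 of 12 lowest in library 3 (Amh, Sox9, Dhh and Sox8). Clu, another of the 12, was highest there, with 2980, 3070 and 3470 CPM, so that the sum hides opposite differences. Germ cell markers went another way, with 57.7, 41.8 and 48.4 CPM, and 37.5% of all expressed symbols were lowest in library 3. The part of other cells or of cell handling in the spread of Gadd45g was not tested.

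**Figure D4:**
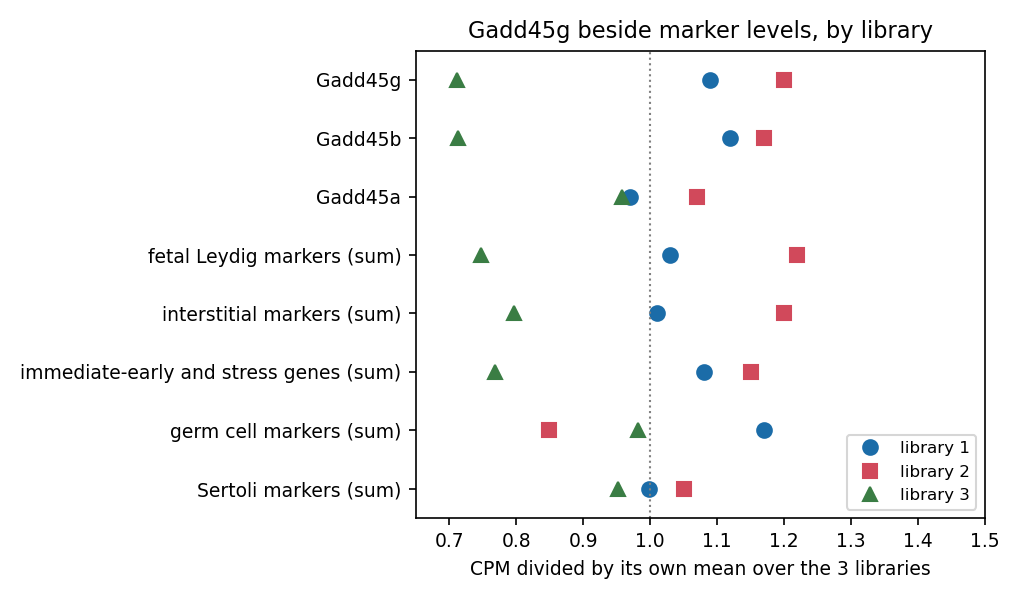
CPM in each of the 3 libraries divided by the mean over the libraries (x) for the GADD45 genes and summed marker lists (rows). Library 3 is at 0.711 for Gadd45g, 0.712 for Gadd45b, 0.747 for the fetal Leydig sum and 0.768 for the immediate-early and stress sum, while the Sertoli sum lies between 0.952 and 1.05.

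Sequences directly upstream of the annotated transcription start are shown for Map3k4 and Gadd45g, which had the lowest and the highest CV over all 3 libraries, and for Six4 at the edge of the call. They were picked after those values were seen, and with any 1 library left out another regulator had a lower CV than Map3k4. They are the 250 bases before the outermost start in RefSeq's promoter table (GRCm38.p6), on the strand of the gene. In the same annotation the gene span, which includes predicted transcripts, begins farther upstream for 2 of them, so that 136 bases of the Map3k4 window, all 250 of the Six4 window and 0 of the Gadd45g window lie inside it. The windows are chr17:12318661-12318910 on the minus strand for Map3k4, chr13:51846425-51846674 on the plus strand for Gadd45g and chr12:73113426-73113675 on the minus strand for Six4. Capitals mark matches, on either strand, to the letters of 3 promoter motifs. The GC box is GGGCGG, which reads as CCGCCC where it lies on the opposite strand. A CCAAT box was searched by those letters alone, and the TATA box as TATAAA.
Map3k4: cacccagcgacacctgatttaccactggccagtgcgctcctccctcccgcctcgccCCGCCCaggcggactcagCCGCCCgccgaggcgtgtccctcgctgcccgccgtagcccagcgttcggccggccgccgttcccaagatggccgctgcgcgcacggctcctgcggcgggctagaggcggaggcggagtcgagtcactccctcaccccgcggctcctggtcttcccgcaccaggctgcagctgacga
Gadd45g: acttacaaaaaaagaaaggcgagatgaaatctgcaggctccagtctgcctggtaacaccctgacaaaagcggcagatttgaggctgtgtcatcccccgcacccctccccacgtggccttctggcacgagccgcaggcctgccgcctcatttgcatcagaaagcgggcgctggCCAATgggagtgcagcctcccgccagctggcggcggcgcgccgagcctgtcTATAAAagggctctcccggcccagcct
Six4: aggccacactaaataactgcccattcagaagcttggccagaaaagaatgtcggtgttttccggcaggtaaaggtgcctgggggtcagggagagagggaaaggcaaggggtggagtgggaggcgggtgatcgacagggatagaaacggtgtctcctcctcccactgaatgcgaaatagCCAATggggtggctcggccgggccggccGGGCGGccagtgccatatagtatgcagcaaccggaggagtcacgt

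The upstream window of Gadd45g held a TATA box 27 to 22 bases before the start and a CCAAT box 78 to 74 bases before it. Among 27025 windows of the same length, 3507 held the TATA letters, 9331 (34.5%) the CCAAT letters and 8907 (33.0%) the GC box letters. Gadd45g was the single regulator with the TATA letters among the 5 that RefSeq's table matched. Whether 1 window in 5 differs from the share among all 27025 windows was not tested. No trait particular to Gadd45g is read from this count. Map3k4 held 2 GC boxes and 31 CpG pairs, a number that 4.36% of windows exceeded, and Kdm3a held 2 GC boxes, 2 CCAAT boxes and 20 CpG pairs. Six4 held 1 GC box, 1 CCAAT box and 13 CpG pairs, and Map2k6 held none of the 3 motifs and 12 CpG pairs, against a median of 6 over all windows. No motif overlapped another. A match describes letters, and the DNase-seq and H3K27ac lists of the series were not analysed at these genes, because their positions are in mm9 and no gene positions of that build were used here.

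The partners of the 6 regulators were read from lists of their families and pathways. Besides these, the lists held 7 gonadal genes (6 expressed) and 3 CBX genes of the HP1 type (3 expressed). Leaving out the regulators themselves, 65 of all 76 listed genes were expressed (85.5%), against 47.1% of all symbols. The lists name well-studied genes, so this share says nothing particular about them.

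The p38 and JNK cascade around MAP3K4, GADD45G and MAP2K6 was transcribed at each level. Of 9 MAP3K genes including Map3k4, 8 were expressed, with Map3k6 at 0.733, 0.839 and 1.20 CPM as the exception. Map2k3, which encodes the other dedicated p38 kinase kinase, had scaled counts of 0.777, 0.826 and 0.854, and all 4 MAP2K genes of the p38 and JNK branches were expressed. Among the p38 isoforms, Mapk14 (1.97 ± 0.0810) and Mapk13 (4.20 ± 0.207) were expressed (scaled counts, SD, n = 3). Mapk11 (0.586, 1.04 and 0.705 CPM) and Mapk12 (0.502, 0.561 and 0.630 CPM) were not. The neuronal JNK gene Mapk10 (0.942, 0.875 and 0.851 CPM) was below 1 CPM in every library, while Mapk8 and Mapk9 were expressed. All 8 genes listed as p38 substrates or as factors further down that branch were expressed. Mapkapk2, a kinase activated by p38, had a scaled count of 6.66 ± 0.285 (SD, n = 3). Atf2, a p38-responsive transcription factor, had 1.78 ± 0.0521 (SD, n = 3). All 4 phosphatase genes that can switch p38 and JNK off were expressed as well, with Dusp16 at 2.30 ± 0.0627 and Dusp1 at 0.995 ± 0.106 (scaled counts, SD, n = 3).

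**Figure D5:**
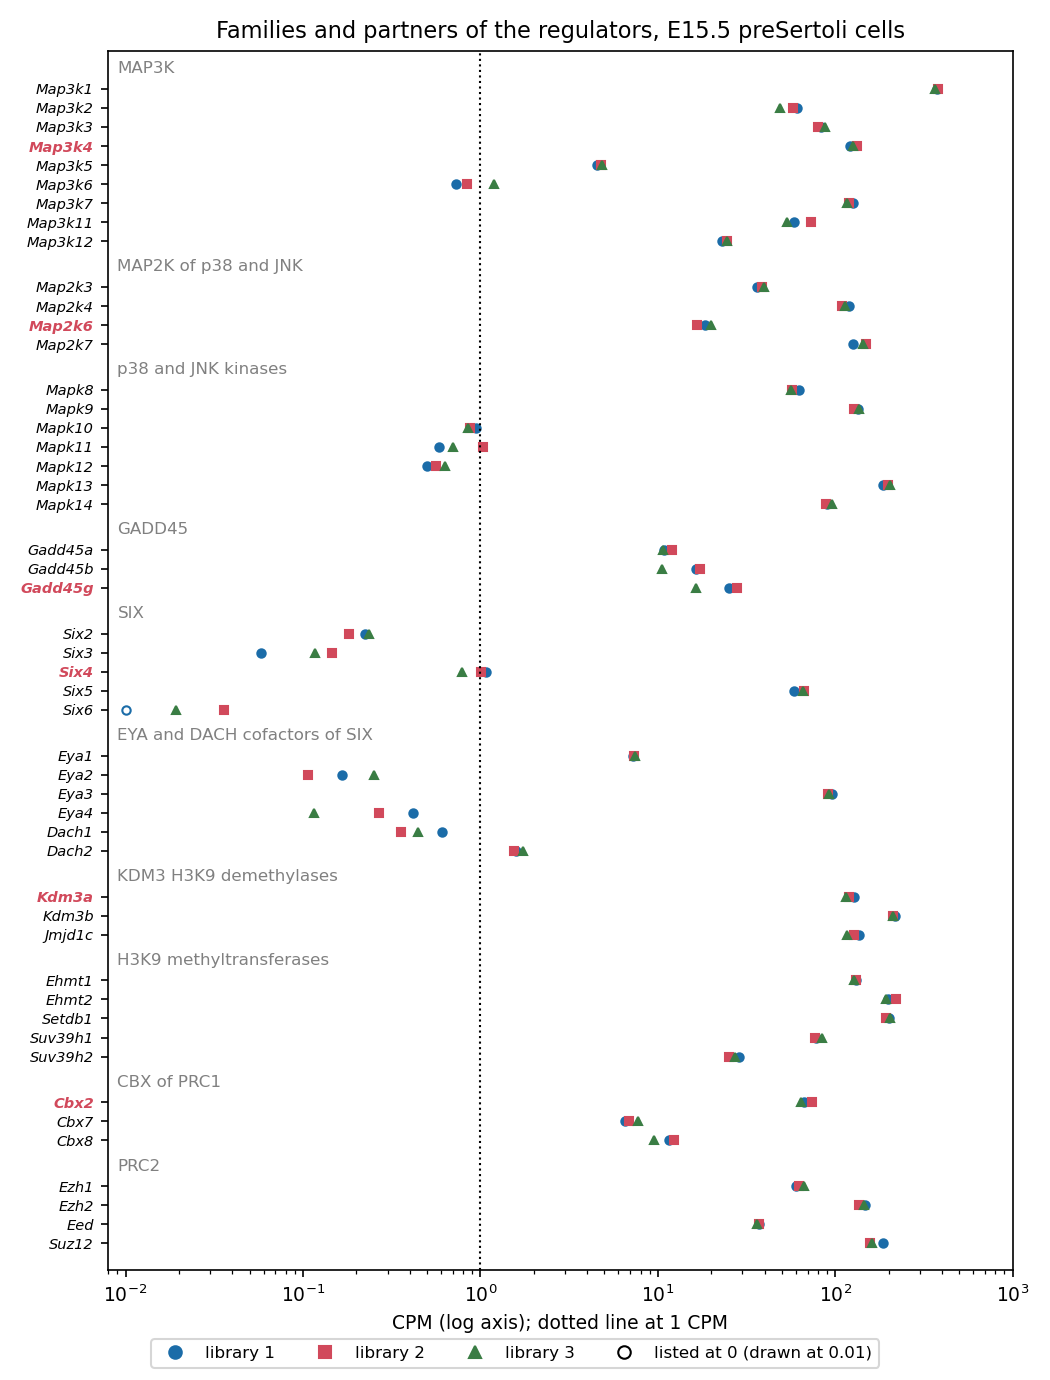
CPM (x, log axis) in each of the 3 libraries for the regulators (red names) and members of their families and complexes (black names), grouped by list, with a dotted line at 1 CPM. Six4, Map3k6 and Mapk11 straddle the line, and Mapk10, Mapk12, Six2, Six3, Six6, Eya2, Eya4 and Dach1 lie left of it in all 3 libraries.

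Six4 was listed with 4 paralogs, Six2, Six3, Six5 and Six6, of which Six5 alone was expressed, with scaled counts of 1.26, 1.43 and 1.41. Six2 (0.225, 0.182 and 0.236 CPM) and Six3 (0.0580, 0.146 and 0.117 CPM) were below 1 CPM in every library, and Six6 was listed at 0 in library 1. Of the EYA and DACH genes, which encode cofactors of SIX4 and its paralogs, Eya1 (7.29, 7.35 and 7.45 CPM), Eya3 (95.5, 90.6 and 92.8 CPM) and Dach2 (1.59, 1.55 and 1.74 CPM) were expressed. Eya2, Eya4 and Dach1 were below 1 CPM in every library.

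Kdm3a stood among H3K9 enzymes that were all expressed. Its paralogs Kdm3b (4.67, 4.55 and 4.57) and Jmjd1c (2.93, 2.75 and 2.52) had scaled counts above 1 in every library. The opposing methyltransferases Ehmt1 (2.79 ± 0.0433) and Ehmt2 (4.40 ± 0.313), which encode GLP and G9a, were expressed, as were Setdb1 (4.29 ± 0.111), Suv39h1 (1.71 ± 0.0947) and Suv39h2 (0.580 ± 0.0366; scaled counts, SD, n = 3).

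Cbx2 was expressed together with its Polycomb paralogs Cbx7 and Cbx8. Cbx6, also listed, was not found among the gene symbols. Cbx8 stood at 0.239 ± 0.0316 and Cbx7 at 0.151 ± 0.0129 (scaled counts, SD, n = 3). All 11 RING, PCGF and PHC genes of PRC1 were expressed, among them the ubiquitin ligase Rnf2 at 2.41 ± 0.157 and the PCGF gene Bmi1 at 0.715 ± 0.0568 (scaled counts, SD, n = 3). All 4 PRC2 genes were expressed too, with the methyltransferase gene Ezh2 at 3.07 ± 0.135 (scaled counts, SD, n = 3).

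Of Sry and 6 other gonadal genes listed with the regulators, all but Sry were expressed at E15.5. Sry itself had 0, 1 and 2 expected counts. For the count of 0 in library 1, a floor set at 3 counts corresponds to 0.0628 CPM. Nr5a1 (11.0 ± 0.574), Gata4 (16.0 ± 0.398), Wt1 (8.44 ± 0.193) and Zfpm2 (1.39 ± 0.0306), which encode transcription regulators of the gonad, were all expressed (scaled counts, SD, n = 3). Sox9, the target of SRY, had scaled counts of 5.97, 6.07 and 4.66, and Lhx9, an early gonadal factor, had 0.169, 0.235 and 0.128. Sox9, Lhx9 and Zfpm2 were lowest in library 3, 3 of the 7 listed genes, against 37.5% of all expressed symbols. Gata4 and Nr5a1 were highest there, as was Sry with its 2 expected counts.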

How the data were processed

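Per the submitters' processing notes, RNA-seq reads (50 bp, single-end, poly-A libraries) were processed on mm9, and the tools named are RSEM 1.2.0, Bowtie 0.12.7 and CASAVA 1.8.2; the gene annotation is not given in the sources used here. The table deposited by the authors holds square roots of expected counts divided by the 75th percentile of each library, per the file headers and the values. Squares were whole hundredths of a read in 100% of values above 0 (tolerance 0.05 hundredths), which gave expected counts and CPM. The recovery was tested on simulated data. The 3 columns carry only a number, which names the libraries. Of 28427 rows, the one of highest mean was kept per symbol. Ranks run over 27697 symbols. Genes were named as members, as members of listed families, or by rank next to a member. The members and lists were chosen with earlier results of these data known. Some genes of the families are not reported here. No test was made, since there is 1 RNA group. Python 3.11.15, numpy 2.4.6, pandas 2.3.3 and scipy 1.17.1 were used. Alternatives were other scalings, thresholds, row handling and leaving out each library.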

Additional observations from a re-analysis of the deposited data

How the results depend on the processing

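The 3 other scalings changed the values of a library by factors of 0.9966 to 1.004. Leaving out 1 of 3 libraries cannot move a mean by as much as 1 SD, so the levels without each library say nothing about stability. Ranks shifted by at most 430 places, for Gadd45g without library 3. The scalings by trimmed mean and by median of ratios were written out by hand, a choice made after seeing the data, because the table holds no counts. Six4 was the exception among the calls: at 0.5 CPM, or without library 3, all 6 regulators were expressed, and at 5 CPM 5 were. Of all 27697 symbols, 10823 were expressed at 5 CPM, 13995 at 0.5 CPM, 13185 without library 3 and 13343 by the mean. The CV, taken from scaled counts where a library was left out, depended on single libraries. Leaving out each in turn gave 2.77% to 5.98% for Map3k4, 7.31% to 36.2% for Gadd45g, 5.64% to 12.6% for Map2k6, 4.20% to 21.4% for Six4, 2.35% to 7.40% for Kdm3a and 2.61% to 10.5% for Cbx2. The lowest came without library 3 for Gadd45g and Six4, without library 2 for Map3k4, Map2k6 and Cbx2, and without library 1 for Kdm3a. Levels per length and peaks near the genes were not run. No paired analysis was possible because RNA-seq holds a single group. Depth limits Six4, at 41 to 56 expected counts per library.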
